A study of Mus musculus with 6 samples.

Results

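Iron handling genes were followed in mouse peritoneal macrophages, phagocytes of the abdominal cavity, after activation of 1 of 2 Toll-like receptors. The set comprised 8 genes: the iron importers and metal transporters Tfrc, Slc11a1 and Slc11a2, the exporter Slc40a1, the ferroxidase Cp, the hormone gene Hamp, and the iron regulatory proteins Aco1 and Ireb2. Members were found by gene symbol among array probes annotated with a single gene, and 7 of the 8 were measured, of 19935 genes in the whole table. Each of the 7 had 1 probe. Slc11a1 was not analysed here.

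All cells came from the inbred strain C57BL/6 and were cultured in the same medium with serum. In the first group cells received poly I:C, a double-stranded RNA mimic sensed by TLR3, at 2 ug/mL for 24 h. In the second they received PAM, a lipopeptide ligand of TLR2, at 1 ug/mL for 24 h, and the descriptions of its 2 samples spell the compound PAMCSK3 and PAMCSK4. The third group was untreated control cells, for which no culture time is given. A difference from control that both ligands share therefore cannot be told apart from one of time in culture. Each group held 2 arrays, and the descriptions are silent on whether both came from different mice or dishes, so a p-value here covers only the spread between the samples at hand, possibly a technical one. Precision is limited by the small number of arrays, and log2 differences had a median SE of 0.07 over all genes.

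Macrophages take up iron with transferrin and also recover it from the hemoglobin of engulfed red cells, store it in ferritin, and return it to the plasma through ferroportin. Iron regulatory proteins bind stem-loops in messenger RNAs when iron is scarce: binding near the start of the ferritin and ferroportin messages blocks their translation, and binding near the end of the transferrin receptor message protects it from decay. During infection the hormone hepcidin removes ferroportin from the cell surface, and macrophages are known to hold iron back from extracellular microbes.

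Values are on a log2 scale centred probe by probe, so 0 is the median of the 6 arrays, and levels of different genes cannot be compared. Folds assume a log base of 2. Differences are given as log2 difference ± SE (n = 2 arrays per group), with p adjusted over all 19935 genes by limma. By the steps of the deposited numbers, Tfrc, Slc11a2, Aco1 and Ireb2 were classed as at least 8 on each of the 6 arrays before centring. So were 92.6% of ribosomal protein probes and 2.71% of olfactory receptor probes. A dimmer probe can meet this criterion by chance. Slc40a1, Cp and Hamp did not meet this criterion. All 7 macrophage markers examined met it, among them Csf1r, Cd68 and Lyz2, as did 1 of 6 resident peritoneal macrophage, 1 of 6 T and NK cell and 3 of 7 mesothelial and fibroblast markers, and 0 of the 9 neutrophil, 4 B cell, 4 erythroid and 6 eosinophil and mast cell markers measured. Macrophage markers themselves moved: 2 rose and 2 fell with poly I:C, and 2 rose and 3 fell with PAM, among them Adgre1 (log2 difference -0.97 with poly I:C and 1.38 with PAM), Fcgr1 (2.65 and -1.72), Itgam (-1.49 and -0.49) and Mertk (0.22 and -1.23). Marker counts here and below stand against 30.4% of all genes called with poly I:C and 25.0% with PAM. Among the 5999 genes at 8 or above on all arrays, 65.1% and 58.1% were called. All 7 macrophage markers lie in that class, and their counts are read as no more than that background. Of 4 B cell markers, Cd79b (0.36 and 0.62) and Ms4a1 (0.44 and 0.51) were higher with both ligands. Of 7 mesothelial and fibroblast markers, Col3a1 (-0.69), Col1a1 (-0.36) and Upk3b (-0.40) were lower with poly I:C, and with PAM Dcn (0.95) was higher and Upk3b (-0.45) lower. Among these, the calls of Mertk with poly I:C, Col1a1, Upk3b, Cd79b with poly I:C and Ms4a1 ended when 1 array was left out. The part of such cells in the gene changes was not tested.

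With poly I:C, 4 of the 7 measured genes passed the threshold of an adjusted p under 0.05, against 30.4% of all genes tested. Slc11a2 was higher (12.1% of all genes were higher) and Slc40a1, Tfrc and Aco1 were lower (18.2% were lower). With PAM, 4 of 7 also passed, against 25.0% of all genes: Slc11a2 and Cp were higher (11.0%) and Slc40a1 and Aco1 were lower (14.0%). Between the ligands 4 of 7 differed, against 28.7% of all genes, and all 4, Tfrc, Slc11a2, Cp and Aco1, were on the lower side with poly I:C (15.8% of all genes were). Among the genes that were at least 8 on every array, 3 of 4 members were called with poly I:C, against 65.1% of 5999 genes, 2 of 4 with PAM, against 58.1%, and 3 of 4 between the ligands, against 64.2%, and the number of members called is read as no more than that background. Both comparisons with control share the same 2 control arrays.

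**Figure D1:**
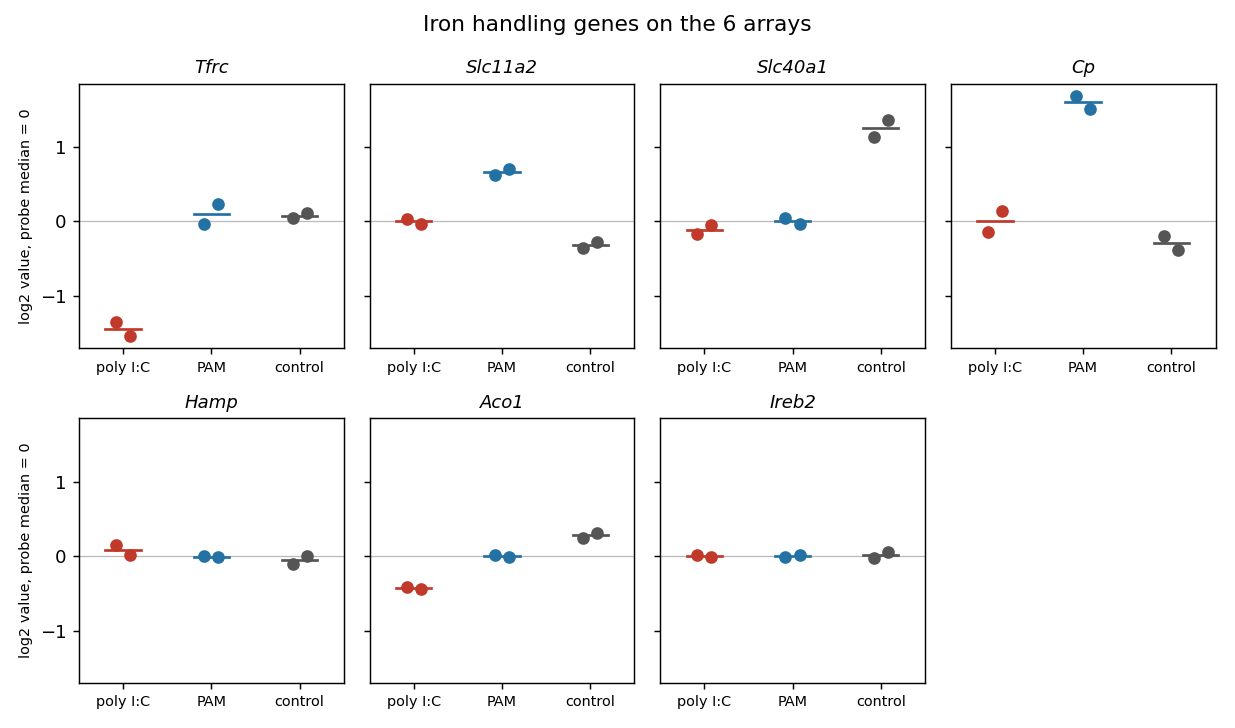
Log2 values (vertical axis, probe median = 0) of the 7 measured iron handling genes on each array, with poly I:C, PAM and control arrays from left to right in each panel; points are arrays and bars are group means. Tfrc stood apart with poly I:C, Cp stood apart with PAM, Slc40a1 stood apart in control cells, and Ireb2 lay between -0.03 and 0.06 on every array.

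Of the import genes, Tfrc was lower with poly I:C and Slc11a2 was higher with both ligands. Tfrc encodes transferrin receptor 1, which carries iron-loaded transferrin into endosomes. Its log2 values were -1.35 and -1.54 with poly I:C, -0.04 and 0.24 with PAM, and 0.04 and 0.11 in control cells. Both poly I:C arrays lay below every other array, while the PAM and control arrays overlapped. Tfrc fell with poly I:C by 1.52 ± 0.10 on the log2 scale, which is 2.87-fold (adjusted p = 4.71e-06, limma), and 0.682% of all genes had as large a decrease. With PAM the difference from control was 0.03 ± 0.10 (adjusted p = 0.91; 95% interval -0.20 to 0.26), and poly I:C minus PAM was -1.55 ± 0.10 (adjusted p = 3.87e-06). The order of levels was PAM and control, which did not differ beyond their spread, above poly I:C. In bulk samples such as these, fewer cells of a type and less RNA per cell cannot be told apart.

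Slc11a2, the divalent metal transporter DMT1 that passes ferrous iron out of endosomes, moved upward with both ligands. Its log2 values were 0.03 and -0.03 with poly I:C, 0.62 and 0.70 with PAM, and -0.36 and -0.28 in control cells, so the 3 groups did not overlap. The gene rose by 0.98 ± 0.07 with PAM, which is 1.97-fold (adjusted p = 7.53e-06, limma). It rose by 0.32 ± 0.07 with poly I:C, 1.25-fold (adjusted p = 0.0064), and without poly I:C replicate 1 that call ended (0.29, adjusted p = 0.0531). Poly I:C minus PAM was -0.66 ± 0.07 (adjusted p = 8.27e-05), giving the order PAM, poly I:C, control. Tfrc and Slc11a2 act in succession in the same endosome, and with poly I:C their messages changed in opposite directions.

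Among other genes of the transferrin cycle and endosomal iron entry, Trf, Steap3 and Hfe were lower with both ligands and Slc39a14 was higher with PAM. Of 13 measured genes of that list, Tfrc and Slc11a2 included, 7 were lower and 1 was higher with poly I:C (median -0.24, against 0.01 over all genes), and 4 were lower and 3 higher with PAM (median 0.02, against 0.00). These counts, like those of the lists that follow, stand against 18.2% of all genes lower and 12.1% higher with poly I:C, and 14.0% lower and 11.0% higher with PAM. Of the 5999 genes at 8 or above on all arrays, 65.1% were called in either direction with poly I:C and 58.1% with PAM. The lists mix genes in and out of that class, so their counts are not read as a result about the lists. Trf, transferrin itself, had log2 values of 0.11 and -0.11 with poly I:C, -0.26 and -0.21 with PAM, and 1.59 and 1.68 in control cells. It fell with poly I:C by 1.63 ± 0.08 and with PAM by 1.86 ± 0.08 (adjusted p = 8.35e-07 and 4.41e-07, limma). Steap3, the endosomal ferrireductase that prepares iron for DMT1, fell by 0.87 ± 0.08 with poly I:C, and its log2 difference with PAM was -1.44 ± 0.08 (adjusted p = 3.36e-05 and 1.49e-06), and poly I:C minus PAM was 0.57 ± 0.08 (adjusted p = 0.000518). Hfe, whose protein binds transferrin receptor 1, fell by 0.91 ± 0.09 with poly I:C and by 1.21 ± 0.09 with PAM. Steap4 fell by 0.96 ± 0.15 with poly I:C (adjusted p = 0.000877). With PAM it differed by -0.14 ± 0.15 (adjusted p = 0.587), and by -0.41 without control replicate 2. Steap1 rose by 0.38 ± 0.10 with PAM, a call that ended without PAM replicate 1, PAM replicate 2 or control replicate 1. Slc39a14, an importer of iron not bound to transferrin, rose by 1.39 ± 0.08 with PAM (2.62-fold, adjusted p = 2.44e-06), and with poly I:C its difference was -0.23 ± 0.08 (adjusted p = 0.0649, and 0.0153 without control replicate 1).

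Of the export genes, Slc40a1 was lower with both ligands and Cp was higher with PAM. Slc40a1 encodes ferroportin, the exporter through which iron leaves the cell. Its log2 values were -0.17 and -0.05 with poly I:C, 0.04 and -0.04 with PAM, and 1.14 and 1.36 in control cells. Both treated groups lay below both control arrays. The gene fell with poly I:C by 1.36 ± 0.09, or 2.57-fold (adjusted p = 3.78e-06, limma), and with PAM by 1.25 ± 0.09, or 2.37-fold (adjusted p = 7.74e-06). The ligands did not differ beyond their spread: poly I:C minus PAM was -0.11 ± 0.09 (adjusted p = 0.431; 95% interval -0.32 to 0.09). As large a decrease was seen for 0.938% of all genes with poly I:C and 1.17% with PAM. Of 6 markers of resident peritoneal macrophages, 3 were lower and 2 higher with poly I:C, and 2 were lower and 1 higher with PAM. Cd5l (-1.01 with poly I:C and -1.40 with PAM) and Gata6 (-0.67 and -0.87) were lower with both ligands, Timd4 (2.44 and 1.18) was higher with both, and the mean over the list lay between 0.00 and 0.06 with poly I:C, between -0.19 and -0.04 with PAM, and between 0.05 and 0.08 in control cells. Siglecf, 1 of 6 eosinophil and mast cell markers, was lower with both as well (-0.95 and -1.21), the other 5 did not pass, and the mean over that list lay between 0.00 and 0.03 with poly I:C, between -0.09 and -0.07 with PAM, and between 0.12 and 0.17 in control cells. The part of such cells in the Slc40a1 result was not tested. As no culture time is given for control cells, this shared decrease of Slc40a1 cannot be told apart from one of time in culture.

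Cp encodes ceruloplasmin, a copper enzyme that oxidizes ferrous iron as it leaves the cell so that transferrin can bind it. Cp had log2 values of -0.14 and 0.14 with poly I:C, 1.69 and 1.51 with PAM, and -0.19 and -0.39 in control cells. Both PAM arrays lay above all the others. Cp rose by 1.89 ± 0.11 with PAM, or 3.71-fold (adjusted p = 2.36e-06, limma), the largest difference among the 7 genes, and 0.928% of all genes rose as far. With poly I:C the difference was 0.29 ± 0.11 and did not pass (adjusted p = 0.0866), although the poly I:C and control arrays did not overlap. It passed without control replicate 1 (0.39, adjusted p = 0.0368) and without poly I:C replicate 1 (0.43, adjusted p = 0.0399). Poly I:C minus PAM was -1.60 ± 0.11 (adjusted p = 5.52e-06). With PAM the exporter Slc40a1 and the ferroxidase Cp changed in opposite directions.

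Hamp encodes hepcidin, the peptide that binds ferroportin and sends it to degradation. The log2 values of Hamp were 0.15 and 0.02 with poly I:C, 0.00 and -0.01 with PAM, and -0.11 and 0.00 in control cells. The values of all 6 arrays lay within a narrow range. PAM and control arrays overlapped, and both poly I:C arrays lay above all the others. The difference from control was 0.14 ± 0.07 with poly I:C (adjusted p = 0.198, limma; 95% interval -0.02 to 0.31) and 0.05 ± 0.07 with PAM (adjusted p = 0.737; -0.12 to 0.22), and poly I:C minus PAM was 0.10 ± 0.07 (adjusted p = 0.438). Signal over background is unknown for this probe, as for the probes of Slc40a1 and Cp. The same holds, among the other iron and heme genes named, for Hp, Il6, Slc39a14, Epas1, Hfe, Bmp2, Fbxl5, Abcb10, Abcg2 and Ltf. It also holds for Steap1, Steap4, Spic, Smad6, Bmpr1a, Smad5, Smad1 and Acvr1. None of them met the criterion of 8 on every array, so their folds rest on values of unknown signal. Of 13 measured genes of hepcidin regulation, 2 rose and 4 fell with poly I:C (median -0.02, and 2 to 4 lower when 1 array was left out, 2 of them without poly I:C replicate 2), and 5 were higher and none lower with PAM by limma (median 0.12, and 3 to 6 higher when 1 array was left out). Il6, the cytokine that induces hepcidin in hepatocytes through STAT3, rose by 4.43 ± 0.11 with PAM (21.5-fold, adjusted p = 1.48e-08). Stat3 rose by 0.96 ± 0.07 with poly I:C (adjusted p = 6.09e-06) and Bmp2 by 0.94 ± 0.10 with poly I:C and 0.76 ± 0.10 with PAM. Smad6 rose by 0.87 ± 0.13 with PAM (adjusted p = 0.0011). The 4 genes that fell with poly I:C were Bmpr1a (-0.46), Smad5 (-0.43), Smad1 (-0.32) and Acvr1 (-0.24). The calls of Smad1 and Acvr1 ended when 1 array was left out.

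Of the iron regulatory protein genes, Aco1 was lower with both ligands and Ireb2 passed in no comparison. Aco1 encodes IRP1, which is the cytosolic aconitase while it holds an iron-sulfur cluster and binds RNA when it has lost it. Its log2 values were -0.42 and -0.44 with poly I:C, 0.01 and -0.01 with PAM, and 0.25 and 0.31 in control cells, with no overlap between groups. Aco1 fell by 0.71 ± 0.06 with poly I:C, or 1.64-fold (adjusted p = 3e-05, limma), and by 0.28 ± 0.06 with PAM (adjusted p = 0.0102). The call with PAM ended without PAM replicate 1 (-0.29, adjusted p = 0.0595) and without PAM replicate 2 (-0.28, adjusted p = 0.0685), where the lone array was taken to vary like the other groups. Poly I:C minus PAM was -0.43 ± 0.06 (adjusted p = 0.000759), which gives the order control, PAM, poly I:C. Ireb2 encodes IRP2, which is regulated by degradation of the protein. Its log2 values were 0.01 and -0.01 with poly I:C, -0.01 and 0.02 with PAM, and -0.03 and 0.06 in control cells, and the groups overlapped. The difference from control was -0.02 ± 0.07 with poly I:C (adjusted p = 0.897; 95% interval -0.17 to 0.13) and -0.01 ± 0.07 with PAM (adjusted p = 0.964; -0.16 to 0.14). Fbxl5, the iron-sensing ubiquitin ligase subunit that marks IRP2 for degradation, rose by 0.81 ± 0.07 with PAM (adjusted p = 3.06e-05) and fell by 0.25 ± 0.07 with poly I:C (adjusted p = 0.023). That second call ended without either control array or either poly I:C array (adjusted p from 0.0505 to 0.124).

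**Figure D2:**
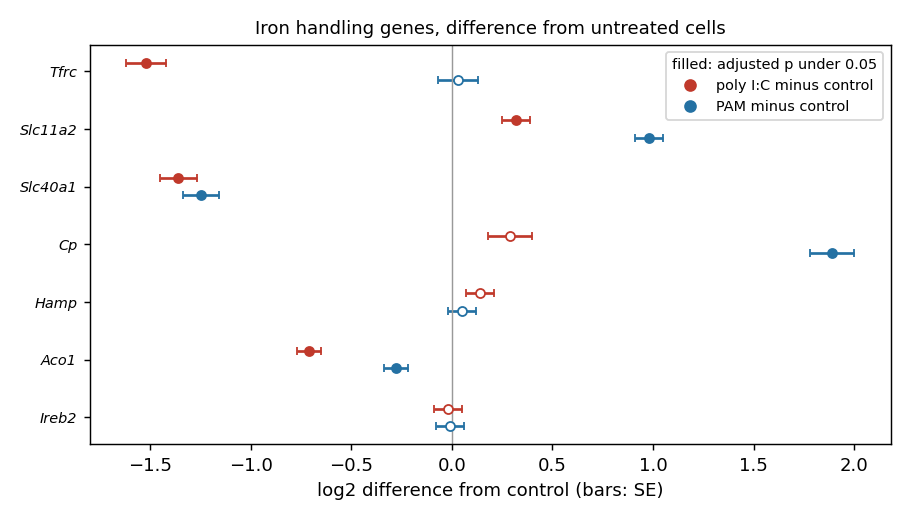
Log2 difference from control cells (horizontal axis, bars are SE) of the 7 measured iron handling genes, with poly I:C above PAM in each row; filled points passed an adjusted p under 0.05. Slc40a1 was lower with both ligands, Tfrc was lower with poly I:C (-1.52) and near 0 with PAM (0.03), and Cp was highest with PAM (1.89).

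Upstream sequences are shown for Tfrc and Aco1, which were lower with poly I:C, for Cp, which was higher with PAM, and for Hamp, which passed in no comparison, so that genes with different patterns can be set side by side. RefSeq (GRCm38.p6) start sites were matched for 6 of the 8 genes, and the 250 bases before the most upstream start are printed 5′ to 3′ on the gene's strand, in lower case with motif matches in capitals. The windows lie at chr16:32608646-32608895 (+) for Tfrc, chr4:40143015-40143264 (+) for Aco1, chr3:19956804-19957053 (+) for Cp and chr7:30944030-30944279 (-) for Hamp.
Tfrc: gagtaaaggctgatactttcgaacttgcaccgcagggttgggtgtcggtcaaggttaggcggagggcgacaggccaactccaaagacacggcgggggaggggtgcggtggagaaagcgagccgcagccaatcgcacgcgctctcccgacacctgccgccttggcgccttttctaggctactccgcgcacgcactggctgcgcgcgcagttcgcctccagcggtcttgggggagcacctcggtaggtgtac
Aco1: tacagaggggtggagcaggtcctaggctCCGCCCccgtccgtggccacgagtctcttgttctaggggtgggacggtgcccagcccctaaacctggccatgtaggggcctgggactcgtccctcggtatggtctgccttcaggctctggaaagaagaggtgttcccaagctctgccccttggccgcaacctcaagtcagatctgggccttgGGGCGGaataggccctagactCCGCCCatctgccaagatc
Cp: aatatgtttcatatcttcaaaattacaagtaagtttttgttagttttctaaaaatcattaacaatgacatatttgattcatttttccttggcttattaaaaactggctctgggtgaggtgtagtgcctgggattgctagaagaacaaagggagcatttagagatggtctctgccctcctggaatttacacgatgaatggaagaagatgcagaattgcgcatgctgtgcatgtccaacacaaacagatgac
Hamp: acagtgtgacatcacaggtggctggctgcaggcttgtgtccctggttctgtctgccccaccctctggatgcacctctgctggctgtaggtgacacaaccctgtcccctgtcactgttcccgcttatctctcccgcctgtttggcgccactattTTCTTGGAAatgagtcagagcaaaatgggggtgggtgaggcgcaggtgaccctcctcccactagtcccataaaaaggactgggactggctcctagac
Both strands were searched for 7 motifs, and matches to different motifs may overlap. The motifs were the NF-kB element (found in 7.25% of 32851 windows of the same length), the interferon-stimulated response element, GAAA repeated after any 2 bases (2.98%), the STAT element TTCNNNGAA (7.02%), the hypoxia element ACGTG (16.6%), the antioxidant response element TGACNNNGC (10.2%), the C/EBP element TTGCNNAA (9.56%) and the GC box GGGCGG (32.7%). Hamp held 1 STAT element, at -97 to -89 from the start, Aco1 held 3 GC boxes, and the letters of none of the 7 were in the Tfrc and Cp windows. Tfrc (64.8% G and C, 25 CG pairs) and Aco1 (62.8%, 10 CG pairs) were richer in CG pairs than the median window (6 CG pairs), whereas Hamp (57.2%, 4 CG pairs) and Cp (37.2%, 2 CG pairs) were poorer. A match is a description of the letters and not a binding site.

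Of the storage and ferritin turnover genes, Ncoa4 and Herc2 were lower with poly I:C. Of 7 measured genes for storage, chaperones and ferritin turnover, none was higher and 2 were lower with poly I:C by limma (median -0.11), and 2 were higher and 1 lower with PAM (median 0.07, and 0 to 3 higher and 0 or 1 lower when 1 array was left out). Fth1, the ferritin heavy chain, had log2 values of -0.04 and 0.04 with poly I:C, 0.13 and 0.09 with PAM, and -0.18 and -0.15 in control cells. It rose by 0.27 ± 0.07 with PAM (adjusted p = 0.0141, limma), a call that ended without PAM replicate 1 (0.25, adjusted p = 0.101) or PAM replicate 2 (0.29, adjusted p = 0.0589). Ftl1, the light chain, differed by -0.11 ± 0.07 with poly I:C and 0.07 ± 0.07 with PAM without passing. Herc2 fell by 0.62 ± 0.07 with poly I:C (adjusted p = 8.38e-05, limma) and differed by 0.07 ± 0.07 with PAM (adjusted p = 0.526). Ncoa4, the receptor that delivers ferritin to lysosomes, fell by 0.63 ± 0.07 with poly I:C (adjusted p = 8.92e-05), and poly I:C minus PAM was -0.92 ± 0.07 (adjusted p = 6.99e-06). Its increase of 0.29 ± 0.07 with PAM ended as a call without PAM replicate 1 (adjusted p = 0.0666) or 2 (adjusted p = 0.0633).

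Among 7 measured genes whose messages carry an iron-responsive element, Slc40a1 and Tfrc among them, 3 were lower and 1 higher with poly I:C (median -0.11), and 2 were lower and 2 higher with PAM (median 0.03). Epas1, a hypoxia-inducible factor gene of this list, fell by 2.82 ± 0.10 with poly I:C and 2.56 ± 0.10 with PAM (adjusted p = 6.05e-08 and 1.57e-07, limma). The element lies at the end of the Tfrc message and of some Slc11a2 messages, and at the start of the Slc40a1, Fth1 and Ftl1 messages. With poly I:C, Tfrc fell and Slc11a2 rose, the latter a call that depended on poly I:C replicate 1. Whether the 1 probe of Slc11a2 reports messages with the element is not known here. The part of iron regulatory proteins in these changes was not tested.

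Among heme iron genes, Hmox1, Slc48a1 and Blvrb were higher with PAM, and Slc48a1 and Blvrb were lower with poly I:C. Of 11 measured genes for heme uptake, breakdown and export, 1 was higher and 5 lower with poly I:C (median -0.16), and 3 were higher and 4 lower with PAM (median -0.11). Hmox1, heme oxygenase 1, which frees iron from heme, had log2 values of -0.07 and -0.09 with poly I:C, 0.78 and 0.84 with PAM, and -0.01 and 0.01 in control cells. It rose by 0.81 ± 0.06 with PAM (1.75-fold, adjusted p = 1.48e-05, limma) and poly I:C minus PAM was -0.89 ± 0.06 (adjusted p = 6.29e-06). Slc48a1, which moves heme out of the phagolysosome, fell by 0.96 ± 0.08 with poly I:C and rose by 0.61 ± 0.08 with PAM (adjusted p = 1.35e-05 and 0.000313). Blvrb, a biliverdin reductase, rose by 0.91 ± 0.08 with PAM (adjusted p = 3.23e-05) and fell by 0.37 ± 0.08 with poly I:C (adjusted p = 0.00672, and 0.0684 without poly I:C replicate 2). Hmox2, the constitutive heme oxygenase, rose by 0.56 ± 0.07 with poly I:C (adjusted p = 0.000375). Lrp1, the receptor for heme-bound hemopexin, was lower with both ligands (-1.28 ± 0.07 and -0.81 ± 0.07). Abcg2 was lower with both as well (-1.18 ± 0.10 and -0.72 ± 0.10), and Flvcr1 was lower with PAM (-0.66 ± 0.08).

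Of 7 measured heme synthesis genes, 1 was higher and 3 lower with poly I:C (median -0.17), and 1, Alas1, was higher with PAM (0.82 ± 0.07, adjusted p = 2.42e-05, limma; list median 0.00). Alas1 makes the first committed intermediate of heme. Cpox, a later enzyme, fell by 0.75 ± 0.08 with poly I:C (adjusted p = 7e-05). Of 20 measured genes for iron-sulfur cluster assembly and mitochondrial iron transport, 8 rose and 7 fell with poly I:C (median 0.01), and 5 were higher and 1 lower with PAM (median 0.04, and 2 to 4 higher and 1 to 3 lower when 1 array was left out, 3 of them lower without control replicate 1). With poly I:C, the calls of Isca2, Mms19, Nfs1 and Glrx5 in this list ended when 1 array was left out. Slc25a37, mitoferrin 1, which brings iron into mitochondria, had log2 values of -0.01 and 0.01 with poly I:C, 0.22 and 0.27 with PAM, and -2.82 and -2.74 in control cells. It rose by 2.78 ± 0.07 with poly I:C, or 6.86-fold, and by 3.02 ± 0.07 with PAM, or 8.12-fold (adjusted p = 7.14e-09 and 6.74e-09). Its paralog Slc25a28, mitoferrin 2, differed between the ligands, with poly I:C minus PAM at 0.68 ± 0.07 (adjusted p = 8.91e-05). Abcb8 and Abcb10, transporters of the mitochondrial inner membrane, fell by 0.99 ± 0.07 and 0.97 ± 0.07 with poly I:C (adjusted p = 4.71e-06 and 7.7e-06).

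Lcn2 and Hp, secreted binders of iron and hemoglobin, had the largest increases of all listed iron and heme genes with PAM. Of 5 measured genes, 2 were higher and 1 lower with each ligand (medians 0.06 with poly I:C and 0.01 with PAM). Lcn2 encodes lipocalin 2, which captures bacterial siderophores, and its log2 values were -0.01 and 0.01 with poly I:C, 5.41 and 5.37 with PAM, and -0.52 and -0.56 in control cells. It rose by 0.54 ± 0.06 with poly I:C and by 5.93 ± 0.06 with PAM, or 61.0-fold (adjusted p = 0.000171 and 1.41e-10, limma). Hp, haptoglobin, which binds free hemoglobin, rose by 1.89 ± 0.07 with poly I:C and by 5.29 ± 0.07 with PAM, or 39.1-fold (adjusted p = 6.69e-08 and 3.96e-10). Both are also granule genes of neutrophils. Of 9 neutrophil markers, S100a8 (2.04 ± 0.10) and Camp (0.64 ± 0.12) were higher with PAM, the other 7, Ly6g and Ngp among them, did not pass, and the mean over the list lay between -0.05 and 0.01 with poly I:C, between 0.24 and 0.27 with PAM, and between -0.09 and 0.02 in control cells. Ltf, lactoferrin, which is in both lists, differed by 0.02 ± 0.07 with poly I:C and 0.01 ± 0.07 with PAM. The part of neutrophils in these results was not tested.

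**Figure D3:**
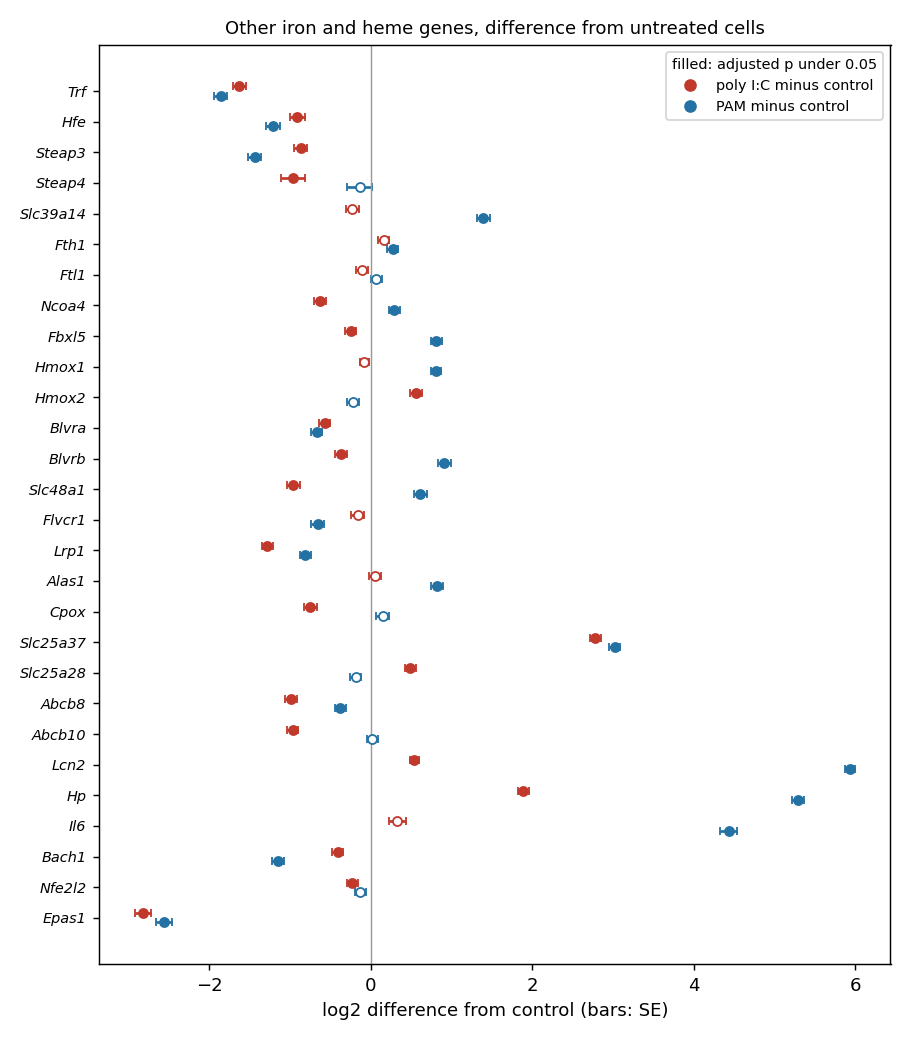
Log2 difference from control cells (horizontal axis, bars are SE) of 28 other iron and heme genes, with poly I:C above PAM in each row; filled points passed an adjusted p under 0.05. Slc48a1 lay at -0.96 with poly I:C and 0.61 with PAM, Slc25a37 was higher with both, and Lcn2 and Hp reached 5.93 and 5.29 with PAM.

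Of 7 measured genes for transcription factors of iron and heme genes and their partner Keap1, 3 rose and 3 fell with poly I:C (median -0.10), and 2 were higher and 2 lower with PAM (median -0.05). Bach1, a heme-sensing repressor of Hmox1 and Slc40a1, had log2 values of 0.05 and -0.05 with poly I:C, -0.80 and -0.69 with PAM, and 0.39 and 0.42 in control cells. It fell by 0.41 ± 0.07 with poly I:C and by 1.15 ± 0.07 with PAM (adjusted p = 0.00214 and 3.34e-06, limma). Nfe2l2, the activator NRF2, fell by 0.23 ± 0.07 with poly I:C (adjusted p = 0.033), a call that ended without any 1 of 5 arrays, all except control replicate 1, and differed by -0.13 ± 0.07 with PAM (adjusted p = 0.242). Keap1, the inhibitor of NRF2, rose by 1.11 ± 0.07 with poly I:C (adjusted p = 2.48e-06). Spic rose by 0.42 ± 0.09 with poly I:C and by 1.16 ± 0.09 with PAM (adjusted p = 0.00589 and 1.31e-05). The poly I:C call of Spic ended without poly I:C replicate 2. Hif1a rose by 0.79 ± 0.07 with poly I:C and by 1.01 ± 0.07 with PAM (adjusted p = 3.54e-05 and 8.55e-06). Over the 85 measured genes of all lists outside the set, 17 rose and 31 fell with poly I:C, against 12.1% and 18.2% of all genes (median -0.07, against 0.01), and 23 were higher and 12 lower with PAM, against 11.0% and 14.0% (median 0.02, against 0.00). For poly I:C versus PAM 13 were higher and 33 lower, against 12.9% and 15.8% of all genes (median -0.11, against 0.01). Among genes at 8 or above on all arrays, the share called in either direction was 65.1% with poly I:C, 58.1% with PAM and 64.2% between the ligands. The 85 genes lie in and out of that class, so their counts are not read as more than background.

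**Figure D4:**
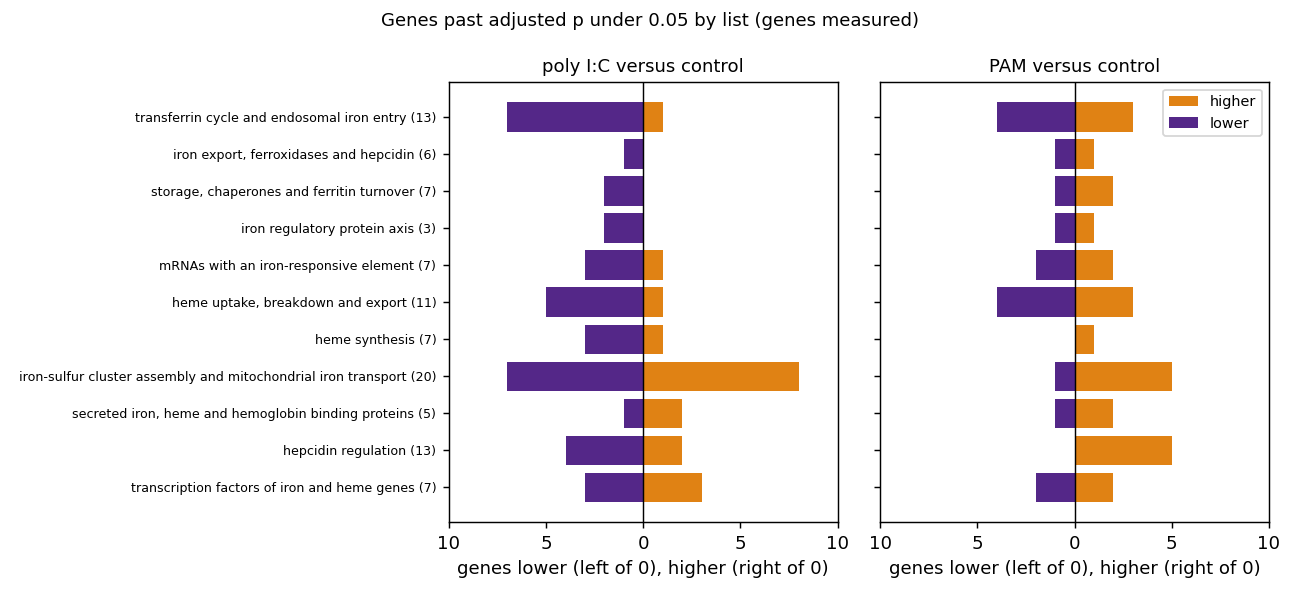
Number of genes past an adjusted p under 0.05 (horizontal axis) in each list of iron and heme genes, lower genes to the left of 0 and higher genes to the right, for poly I:C versus control (left panel) and PAM versus control (right panel); the number of measured genes stands in brackets and lists share genes. In the transferrin cycle list 7 genes were lower with poly I:C and 4 with PAM.

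Genes with the most similar pattern over the 6 arrays were found for the 5 members that passed in a comparison with control, by the smallest root mean square difference between log2 values. For Slc40a1 these were Nav2 (0.083), Trerf1 (0.083) and Hal (0.089). For Tfrc they were Mlec (0.088), Pank3 (0.11) and Insig1 (0.11), whose log2 differences from control with poly I:C were -1.52, -1.46 and -1.45. The genes nearest to Slc11a2 were Slc30a6 (0.038), a zinc transporter gene, Ccl9 (0.046) and Hcls1 (0.055). Nearest to Cp were Sntb1 (0.094), Sdc4 (0.12) and Rnd1 (0.12), and nearest to Aco1 were Rxra (0.018), Ctnna1 (0.02) and Tle1 (0.034). The 6 arrays fall into 3 groups, so many genes can share such a pattern.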

How the data were processed

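Per the labels' protocols, RNA of the cultured macrophages was converted to biotin-labelled cRNA and hybridized to Affymetrix arrays. The authors deposited a table of 28815 probes on 6 arrays, here taken to be log2 values. They had been centred by probe, since no probe's median over the arrays exceeded 5e-07 in size. For summarization, background correction, normalization and log base, no statement was found in the sources used here.

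By the platform annotation, 21780 probes had 1 symbol, 1605 several and 5430 none. Probes of a gene were averaged (998 of 19935 genes had more than 1). No filter on dim probes was possible on centred values. One mean per group was fitted over all 6 arrays with limma 3.58.1 in R 4.3.3 (lmFit, eBayes without trend, 3 residual and 5.68 prior degrees of freedom), with Benjamini-Hochberg adjustment over all genes in each of 3 comparisons. The code was also run on simulated data with independent normal noise, which cannot speak to how the real arrays were replicated. Tables and figures were made in Python 3.11.15 (matplotlib 3.10.9, pandas 2.3.3, numpy 2.4.6, scipy 1.17.1).

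The members and lists were chosen with earlier results of these data known. Named genes were all members, 9 genes always given (Fth1, Ftl1, Hmox1, Lcn2, Steap3, Ncoa4, Fbxl5, Nfe2l2 and Bach1), and the 3 genes most like each member that passed. Others were drawn mainly from the up to 3 genes per list and direction with the largest difference past the threshold. Not every gene within that limit is named. Steps of 1 unit in the last place of single-precision numbers, within a tolerance of 0.05, were used to class probes as at 8 or above on all arrays.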

Additional observations from a re-analysis of the deposited data

How the results depend on the processing

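Results were recomputed with arrays median-centred, with a variance trend, with robust variance, from just the 4 arrays of a comparison, with a replicate block, without each array in turn, per probe, and over genes that were at 8 or above throughout. Of 264 recomputed differences of the members, 252 kept their direction and their side of the threshold, and 3 lost a call and 2 gained one when 1 array was left out, as given with Slc11a2, Aco1 and Cp. The other 7 turned sign, with no call in either fit. Tfrc with PAM ranged without 1 array between -0.11 (without PAM replicate 2; -0.01 without control replicate 1) and 0.16, Hamp with PAM between -0.01 (without control replicate 1) and 0.11, and Ireb2 between -0.06 and 0.03 (without control replicate 2) with poly I:C, between -0.05 and 0.04 (without control replicate 2; 0.01 without PAM replicate 1) with PAM, and between -0.02 and 0.01 (without PAM replicate 2) for poly I:C minus PAM. When 1 array was left out, 4 to 5 members were called with poly I:C (1 to 2 higher, 3 lower), 3 to 4 with PAM (2 higher, 1 to 2 lower) and 4 between the ligands, and genes lower with PAM over the whole table numbered 1828 (without PAM replicate 1) to 2839. Restricted to the 5999 genes at 8 or above on all arrays, 3905 genes were called with poly I:C (1543 higher, 2362 lower), 3485 with PAM and 3853 between the ligands, and 2 members with PAM (1 higher, 1 lower), since this leaves 4 members and fewer genes tested. With the replicate number as a block, 6026, 4918 and 5698 genes and 4, 4 and 4 members were called for poly I:C versus control, PAM versus control and poly I:C versus PAM. The descriptions do not say whether same-numbered samples were paired. Their deviations correlated at -0.07 for poly I:C and control, 0.15 for PAM and control, and -0.01 for poly I:C and PAM. These values are across 19935 genes, which are not independent replicates, and with 2 arrays per group they cannot settle the question. Signal over background cannot be read from centred values, which limits genes not at 8 or above on all arrays, as named with Hamp.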
